A study of Homo sapiens with 10 samples.

Results

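The genes described here are 35 genes of cholesterol and fatty acid synthesis, taken as every region whose assigned gene symbol was one of the 35 in the deposited table of annotated H3K27ac regions. Of these genes, 31 had at least 1 region, and together they had 163 of the 67387 annotated regions, which were assigned to 15633 genes in all. Of the 163 regions, 79 were annotated within 1 kb of a transcription start site (promoter regions), 14 between 1 and 3 kb (promoter flanks) and 70 elsewhere (distal regions, mostly in introns and between genes). MVK, TM7SF2, HSD17B7 and ACACA had no assigned region, so their acetylation was not analysed here. Their promoter sequences are among those searched for motifs below.

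H3K27ac, acetylation of lysine 27 of histone H3, is a mark of active promoters and enhancers, and ChIP-seq, which sequences the DNA pulled down with the marked histone, mapped it here in H1975. This established cell line comes from a human lung adenocarcinoma with mutant EGFR. Controls (DMSO) spent 21 days in medium without drug and 3 days in DMSO. Osimertinib drug-tolerant persister cells (osimertinib DTPs) are the cells left after 24 days of osimertinib at 500 nM, a kinase inhibitor directed at mutant EGFR. The group osimertinib DTPs + AZD5153 received 500 nM osimertinib for 21 days and then 150 nM AZD5153, a bivalent inhibitor of BET bromodomain proteins, for 3 days. Its sample titles hold the word combo, but the labels do not state whether osimertinib was kept during those 3 days. By their labels all groups come from 1 cell line. The name of a submitted file of osimertinib DTPs replicate 3 has H1875 where its label has H1975. The label was followed, and which is right was not tested. Each group has 3 biological replicates with 1 library per replicate, and 1 pooled input library served all of them. Treated cells are the survivors of a culture, so a change of the mark in each cell and a change in which cells are present cannot be told apart.

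Library totals over all regions ranged from 6263443 to 10463351 counts, the lowest in osimertinib DTPs + AZD5153 replicate 3. Counts of that library correlated with replicates 1 and 2 of its group at Spearman's 0.43 and 0.35, beside 0.89 between those replicates. In the other groups these correlations were 0.82 to 0.90. In 7 libraries 29.3% to 34.8% of counts lay in promoter regions, but the share was 50.8% in osimertinib DTPs replicate 2 and 52.9% in osimertinib DTPs + AZD5153 replicate 3. These 2 libraries are called promoter-rich below, and results that rest on promoters are given with and without them. Epithelial markers (EPCAM, KRT8, KRT18, KRT19 and CDH1) had promoter regions in 5 of 5 cases, with group means per region of 9.04 to 78.5 CPM (counts scaled to a common library size), against a median of 11.9 over all promoter regions. Of the markers of other lineages, PTPRC, CD3E and PECAM1 had no promoter region, and CD14, CDH5, COL1A1 and COL1A2 had group means of 1.79 to 24.7 CPM. The summed promoter signal of those 4 genes was 30.0 to 46.7 CPM in DMSO, 53.0 to 100 CPM in osimertinib DTPs and 57.1 to 115.0 CPM in osimertinib DTPs + AZD5153, and its part in the results was not tested. The same sum for the epithelial markers was 313 to 404 CPM in DMSO, 307 to 671 CPM in osimertinib DTPs and 301 to 636 CPM in osimertinib DTPs + AZD5153.

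Cells control their sterol and fatty acid supply through the SREBP transcription factors. SREBF1 and SREBF2 encode these factors as precursors held in the endoplasmic reticulum. SCAP escorts the precursors to the Golgi for cleavage when sterols are low, and the INSIG proteins retain SCAP when sterols are high. The freed factors bind sterol regulatory elements near their target genes, often beside CCAAT boxes and GC boxes, and SREBF1 acts mainly on fatty acid genes whereas SREBF2 acts mainly on cholesterol genes.

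RefSeq promoter sequences (GRCh38.p14, 250 bases before to 50 bases after each start site) were found for 31 of the 35 genes, in 44 promoters. Of them 5 are printed because the regions at these genes carry the results below or, for SREBF2, because it matched the sterol element searched. The 31 genes with a promoter sequence are not the 31 genes with a region. They include MVK, TM7SF2, HSD17B7 and ACACA and lack ACAT2, FASN, FDFT1 and SQLE. Each printed sequence is written 5′ to 3′ on the strand of the gene. Capitals mark the sterol element TCACNCCAC and the CCAAT box, which reads ATTGG where it lies on the other strand. The SREBF1 promoter is chr17:17836937-17837236 (minus strand), that of SREBF2 is chr22:41832855-41833154 (plus), that of INSIG1 is chr7:155297628-155297927 (plus), that of SCD is chr10:100346983-100347282 (plus) and that of HMGCS1 is chr5:43313363-43313662 (minus).
SREBF1: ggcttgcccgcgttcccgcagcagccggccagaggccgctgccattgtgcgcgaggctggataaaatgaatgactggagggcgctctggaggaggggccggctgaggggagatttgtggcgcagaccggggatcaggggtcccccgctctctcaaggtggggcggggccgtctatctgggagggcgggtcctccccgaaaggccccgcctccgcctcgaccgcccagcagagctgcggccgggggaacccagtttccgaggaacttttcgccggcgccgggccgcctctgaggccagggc
SREBF2: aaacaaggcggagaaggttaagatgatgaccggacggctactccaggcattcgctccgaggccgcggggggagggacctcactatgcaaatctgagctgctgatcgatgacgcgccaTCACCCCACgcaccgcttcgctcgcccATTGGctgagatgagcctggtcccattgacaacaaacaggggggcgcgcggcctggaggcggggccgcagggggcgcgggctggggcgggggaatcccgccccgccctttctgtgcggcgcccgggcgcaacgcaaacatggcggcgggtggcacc
INSIG1: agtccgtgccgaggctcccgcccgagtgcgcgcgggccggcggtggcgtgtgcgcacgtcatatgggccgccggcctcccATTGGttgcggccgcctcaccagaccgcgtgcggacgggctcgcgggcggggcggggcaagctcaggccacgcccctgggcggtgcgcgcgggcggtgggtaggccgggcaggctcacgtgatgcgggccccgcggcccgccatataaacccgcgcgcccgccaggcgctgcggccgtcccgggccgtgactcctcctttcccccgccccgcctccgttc
SCD: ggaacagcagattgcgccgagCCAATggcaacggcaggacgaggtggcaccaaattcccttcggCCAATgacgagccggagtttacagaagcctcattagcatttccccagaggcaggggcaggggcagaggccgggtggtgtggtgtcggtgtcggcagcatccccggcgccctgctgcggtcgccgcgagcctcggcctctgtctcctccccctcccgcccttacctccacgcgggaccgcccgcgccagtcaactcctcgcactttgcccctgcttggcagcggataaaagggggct
HMGCS1: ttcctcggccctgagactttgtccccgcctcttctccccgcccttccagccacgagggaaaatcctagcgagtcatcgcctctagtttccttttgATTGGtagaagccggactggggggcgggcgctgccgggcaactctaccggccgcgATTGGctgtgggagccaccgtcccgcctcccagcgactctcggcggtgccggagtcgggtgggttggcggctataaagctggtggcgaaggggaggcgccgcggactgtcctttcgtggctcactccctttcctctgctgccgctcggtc

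The sterol element TCACNCCAC, searched on both strands as all motifs here, occurred in 1 of the 44 promoters (2.27%), at 133 bases before the SREBF2 start site, and in 1.13% of all 35116 RefSeq promoters. Only this string was searched, so sterol elements that read otherwise or lie outside the window were not counted. CCAAT occurred in 26 of the 44 (59.1%), against 34.6% of all promoters and 34.4% of the 12682 promoters with an annotated region over them. The GC box GGGCGG occurred in 88.6% of the 44, against 45.0% and 70.7%. The E-box CACGTG occurred in 13.6%, against 7.26% and 9.98%. Each motif was counted on its own, so that matches of different motifs may share bases, and a motif is described here only as letters in a window. The SREBF1 and SCD sequences show how the promoters differ: SREBF1 has 3 GC boxes and no CCAAT, whereas SCD has 2 GC boxes and 2 CCAAT boxes.

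The first comparison asked how acetylation at the lipid genes differs between osimertinib DTPs and DMSO. In the DTPs, 12 of the 163 regions were lower, in 8 genes (SREBF1, INSIG1, SCD, ELOVL1, ELOVL6, LPIN1, NPC1 and HMGCS1), and 2 were higher, both inside HMGCS1 (edgeR quasi-likelihood test, Benjamini-Hochberg adjusted p under 0.05 over all 157919 regions tested). All 163 regions passed the filter on low counts. The 12 lower regions are 7.36% of the 163, beside 5.13% called lower among all tested regions and 7.22% among all annotated regions. The 2 higher ones are 1.23%, beside 5.58% and 6.98%. All 163 regions are annotated, so the share called lower was near that of the like set. Shares of all annotated regions are therefore set beside the role groups and genes below. Among promoter regions 3 of 79 were lower (3.80%, background 1.85%) and 2 higher (2.53%, background 2.78%). Among distal regions 8 of 70 were lower (11.4%, background 10.8%) and none higher (background 9.79%). The share called lower was thus near the background at distal regions, and no distal region of these genes was among those that gained.

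The second comparison set osimertinib DTPs + AZD5153 against DMSO. Here 24 regions in 12 genes were lower and 7 regions in 5 genes were higher. These are 14.7% and 4.29% of the 163, beside 9.01% and 9.05% of all tested regions and 11.1% and 10.7% of all annotated regions. Promoter regions were lower in 5 of 79 (6.33%, background 3.18%) and higher in 4 (5.06%, background 5.32%). Distal regions were lower in 16 of 70 (22.9%, background 16.1%) and higher in 1 (1.43%, background 14.3%). Both comparisons use the same DMSO libraries, and 13 of the 14 regions called in the first were called in the same direction in the second, which is 92.9% of the first list and 41.9% of the second.

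AZD5153-treated DTPs were then compared with DTPs directly. Apart from the word combo in the titles, the labels do not say whether osimertinib was kept during the 3 days of AZD5153. If it was not, an effect of the BET inhibitor and one of stopping osimertinib cannot be told apart. No region of the lipid genes passed the test in edgeR or in DESeq2, and among all regions edgeR called 0.0% in both directions and DESeq2 0.0133% higher and 0.0462% lower. At an unadjusted p under 0.05 in edgeR there were 4 of 163 regions and 7013 of 157919. These counts became 33 lipid gene regions and 32444 of 161758 when osimertinib DTPs + AZD5153 replicate 3 was left out. Without the 2 promoter-rich libraries, 1 region was higher and 2 were lower, beside 1.13% and 0.982% of all regions. The higher one was an intronic region of LPIN1 (chr2:11697726-11698227), at 12, 16.8 and 7.35 CPM in DTPs and 29.2, 24.9 and 23.4 CPM with AZD5153. The lower ones were a promoter region of FASN (chr17:82096190-82096691) and an internal flank of SREBF1 (chr17:17826265-17826766), whose values with AZD5153 were 0.501, 0.931 and 8.89 CPM and 0.301, 0.465 and 3.67 CPM. In both, the promoter-rich replicate 3 was the highest of its group.

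**Figure D1:**
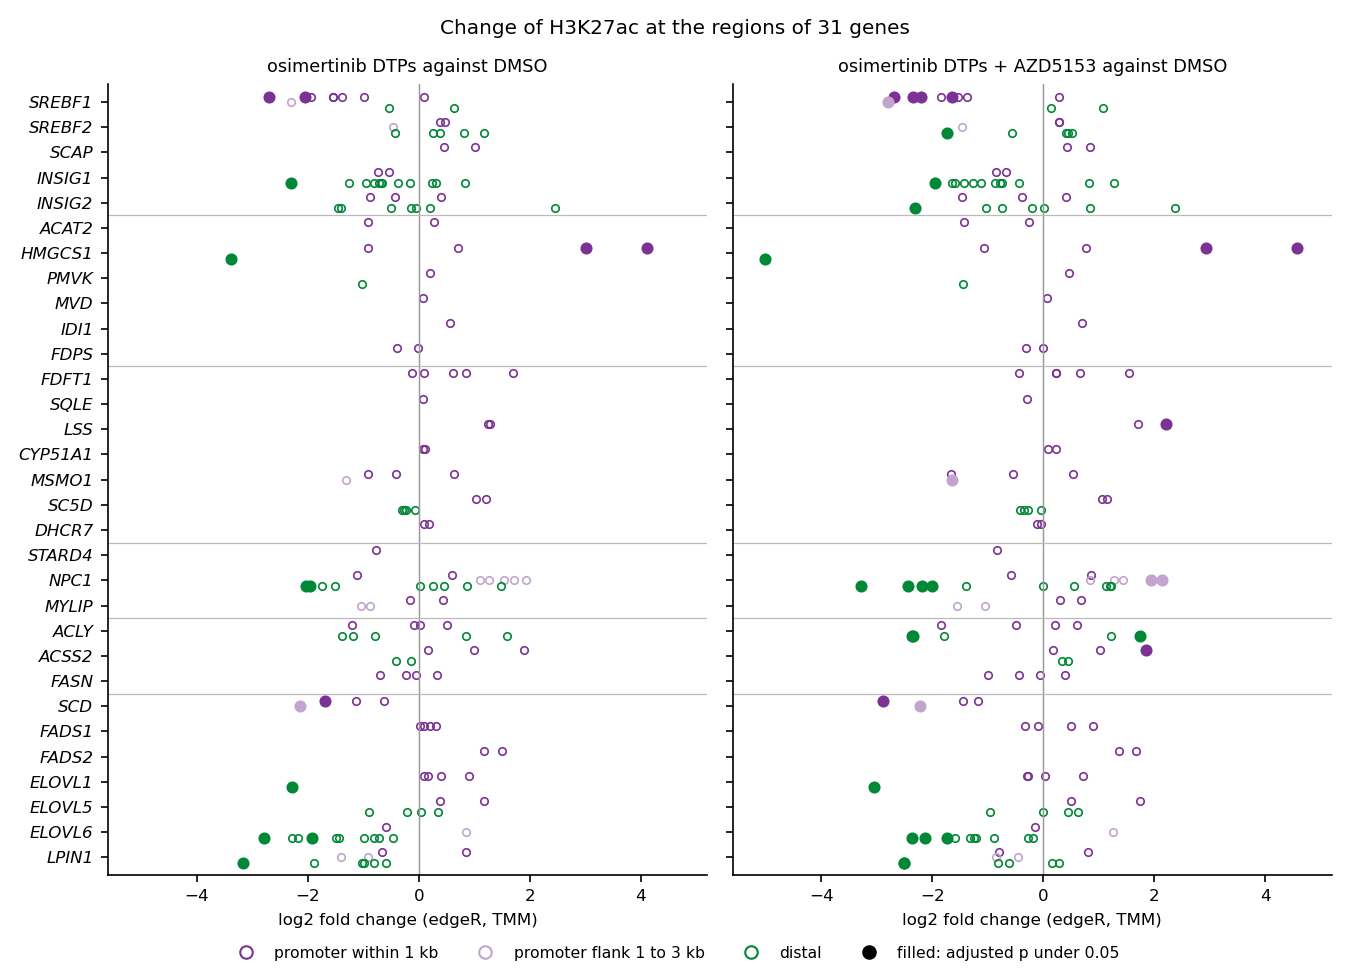
Log2 fold change (edgeR with TMM) of each of the 163 regions, by gene and by kind of region, in both comparisons with DMSO, with filled points for regions past an adjusted p of 0.05 and grey lines between the role groups. Filled points lie mostly left of 0, in 8 genes in the DTPs and 12 with AZD5153, and the 2 HMGCS1 promoter regions inside the gene are the farthest to the right.

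As a set, the promoter regions stood at a median of 0.10 (log2 fold change) in DTPs against DMSO, while all 24296 annotated promoter regions had 0.35. The distal regions had a median of -0.63, while all 36543 distal regions had -0.06. With AZD5153 against DMSO the medians were 0.07 for promoters, beside 0.42, and -0.75 for distal regions, beside 0.03. The sign of the promoter median turned with the scaling: without TMM it was -0.04 in DTPs and -0.20 with AZD5153, and with TMM computed on promoters it was -0.20 and -0.32. It also turned without both promoter-rich libraries, to -0.40 in DTPs and -0.30 with AZD5153, and leaving out osimertinib DTPs replicate 2 alone gave -0.37 in DTPs. Relative to all regions of the same kind in the same fit, the lipid promoters lay 0.17 to 0.27 lower and the distal regions 0.44 to 0.62 lower in DTPs over the 18 settings tried, and 0.31 to 0.39 and 0.61 to 0.79 lower with AZD5153. TMM on promoters also moved the median of all tested regions from 0.15 to -0.01 in DTPs and from 0.23 to -0.14 with AZD5153. The numbers of regions called moved with it, from 2 higher and 12 lower to 1 and 1 in DTPs, and from 7 and 24 to 1 and 18 with AZD5153, where library size without TMM gave 3 and 30. Calls over all regions moved too, to 0.799% higher and 0.957% lower in DTPs and 2.95% and 5.15% with AZD5153 under TMM on promoters, and to 6.06% and 9.59% with AZD5153 without TMM. The 2 regions that stayed called in DTPs under TMM on promoters were an internal HMGCS1 region and an internal SREBF1 region, both described below.

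The share of each library held by these genes was counted without any model. Their promoter regions held 0.356%, 0.354% and 0.356% of all promoter counts in DMSO replicates 1 to 3. In osimertinib DTPs they held 0.318%, 0.312% and 0.267%, and with AZD5153 0.278%, 0.241% and 0.295%. All 6 treated libraries were thus below all 3 DMSO libraries, the promoter-rich ones included. Leaving out SREBF1, SCD and INSIG1, chosen after their values were seen, gave 0.276%, 0.276% and 0.265% in DMSO, 0.273%, 0.276% and 0.237% in DTPs and 0.252%, 0.222% and 0.256% with AZD5153, so that DMSO and DTPs overlapped. Distal regions held 0.263%, 0.252% and 0.242% of all distal counts in DMSO, 0.190%, 0.199% and 0.159% in DTPs and 0.174%, 0.147% and 0.228% with AZD5153. Peaks called in each library by the authors overlapped 143 to 152 of the 163 regions in DMSO, 133 to 138 in DTPs and 114 to 132 with AZD5153. The libraries had 58749 to 63667 peaks in all in DMSO, 54188 to 70227 in DTPs and 57477 to 64784 with AZD5153. Overlap was not counted for all annotated regions, so a difference particular to these genes cannot be read from it.

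**Figure D2:**
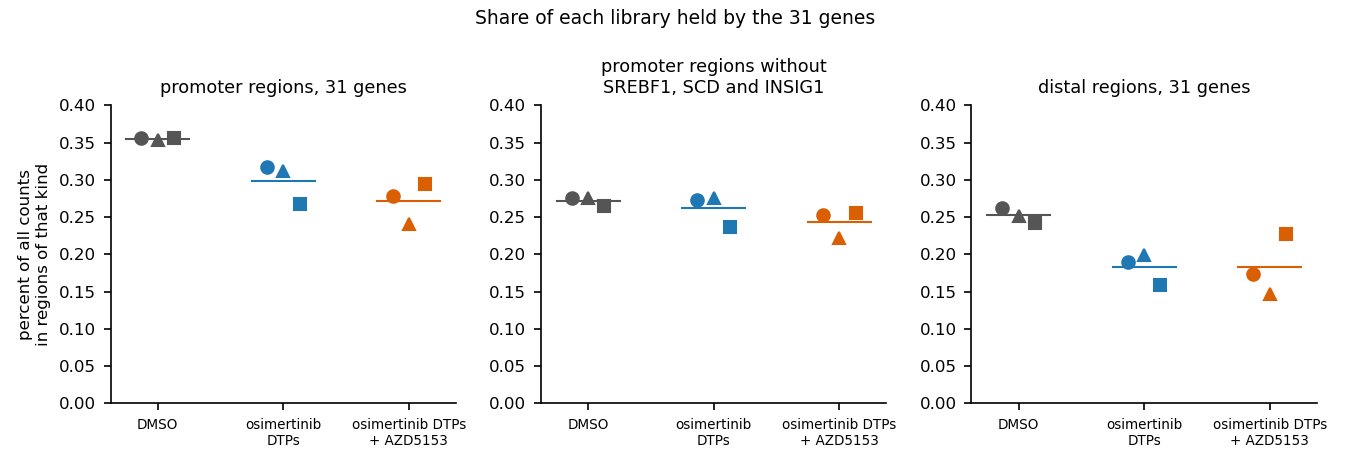
Percent of all promoter counts (left, and middle without SREBF1, SCD and INSIG1) and of all distal counts (right) held by the 31 genes, with 1 point per library (circle, triangle and square for replicates 1, 2 and 3) and a line at the group mean. On the left the treated libraries lie at 0.241% to 0.318% and the DMSO libraries at 0.354% to 0.356%, and in the middle panel the DTP and DMSO points overlap.

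At the strongest promoter region of each gene no difference was called, although 5 of the 79 promoter regions were called in DTPs and 9 with AZD5153. For each gene the strongest promoter region, the one with the highest mean count over the 9 libraries, was set apart, and 0 of the 31 passed the test in either comparison with DMSO, the lowest adjusted p being 0.269 in DTPs and 0.0653 with AZD5153. Of the 31, 24 had a fold change above 0 in DTPs, with a median log2 of 0.27. Of all 24296 annotated promoter regions 17129 were above 0, with a median of 0.35. Within each group 1 library was mostly the highest, which in DMSO was replicate 2, in 26 of 31 genes. In 30 of 31 genes the promoter-rich replicate 2 was the highest of the DTP libraries, and in 27 of 31 the promoter-rich replicate 3 was the highest with AZD5153. The median over the 31 regions was 13.3, 39.1 and 9.87 CPM in DTPs and 12.6, 11.4 and 35.0 CPM with AZD5153, compared with 15.9, 19.1 and 14.2 CPM in DMSO. Leaving these 2 libraries out was chosen after seeing the data. Since they were mostly the highest of their group, this step lowers treated promoter values in advance. Without these 2 libraries 26 of 31 fold changes in DTPs were below 0, and the median was -0.37, beside -0.18 over all promoter regions. FASN, INSIG1 and SCD were called lower, which is 3 of 31 beside 8.81% of all promoter regions in that fit. In the same fit 7 of the 31 promoters, those of ELOVL1, FADS1, FASN, INSIG1, MSMO1, MVD and SCD, were called lower with AZD5153, beside 12.7% of all promoter regions.

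**Figure D3:**
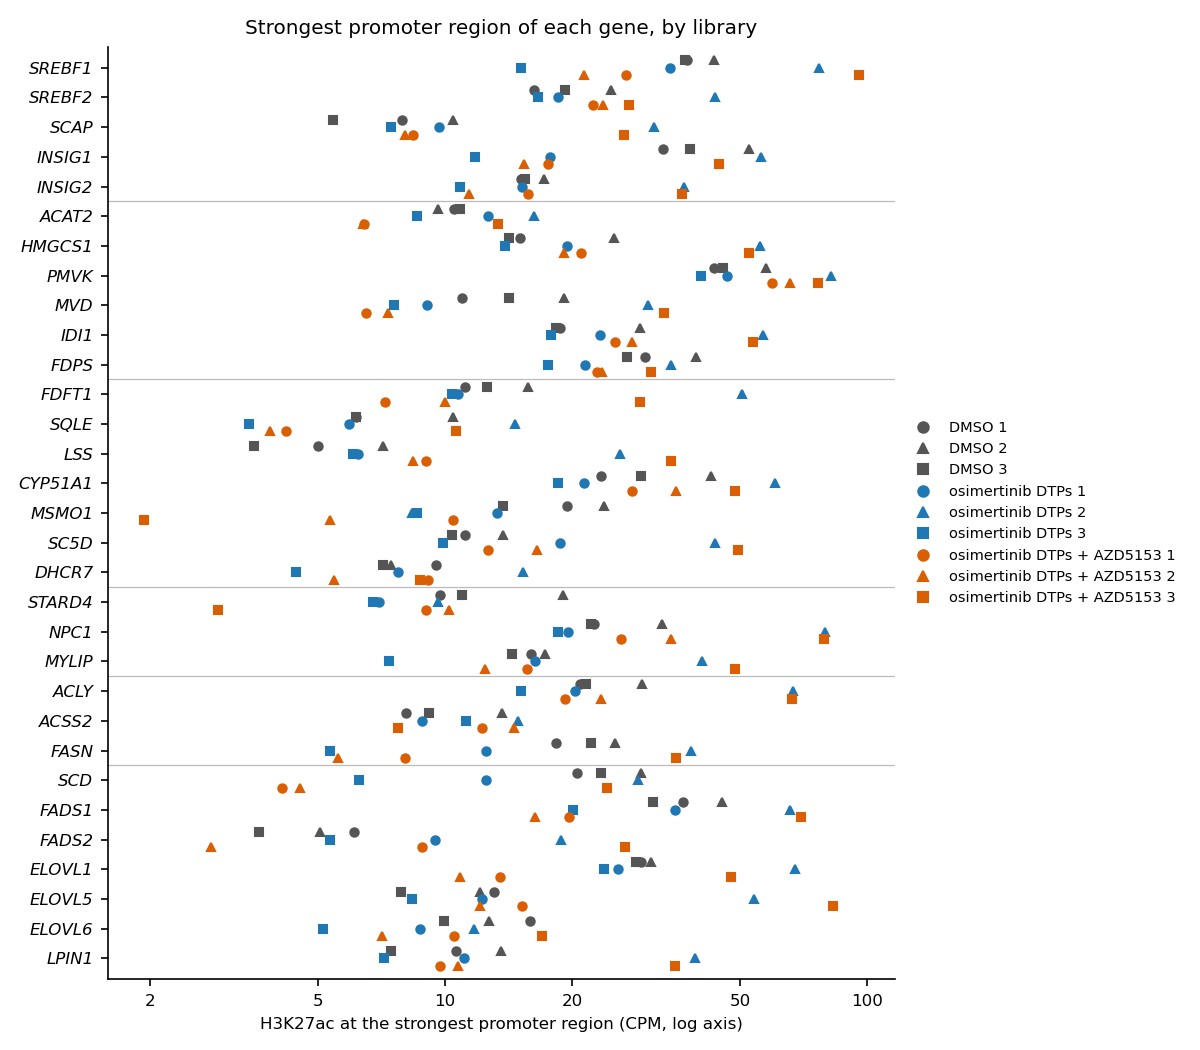
H3K27ac (CPM, log axis) at the strongest promoter region of each of the 31 genes in each library, colored by group, with circle, triangle and square for replicates 1, 2 and 3 and grey lines between the role groups. Replicate 2 of osimertinib DTPs (blue triangle) is the highest DTP library in 30 of 31 genes and replicate 3 of osimertinib DTPs + AZD5153 (orange square) is the highest of its group in 27 of 31.

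Leaving out both libraries raised the number of lipid gene regions called in DTPs to 9 higher and 40 lower, in 5 and 12 genes, beside 14.9% and 12% of all tested regions. With AZD5153 it gave 17 higher and 53 lower, beside 22.8% and 19.8%. Promoter regions were called higher in 3 and lower in 15 in DTPs, beside 6.38% and 8.81% of all promoter regions, and higher in 5 and lower in 24 with AZD5153, beside 14.7% and 12.7%. All 14 and all 31 regions called with every library were also called without these 2.

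Sterol sensing and control had 45 regions in 5 genes. In DTPs 3 were lower (6.67%, near the 7.22% of all annotated regions) and none higher, and with AZD5153 8 were lower (17.8%, beside 11.1%) and none higher. SREBF1, which encodes the precursor of SREBP-1, had 11 regions, of which 2 were lower in DTPs (18.2%, beside the same 7.22%) and 5 with AZD5153 (45.5%, beside 11.1%). The strongest one, at the start of the gene beside the promoter printed above (chr17:17836328-17836829), held 37.5, 43.3 and 37.0 CPM in DMSO, 34.1, 76.8 and 15.1 CPM in DTPs and 26.8, 21.3 and 95.7 CPM with AZD5153. These groups overlapped widely. Within the gene, around 13 kb from that start site and next to start sites of shorter annotated transcripts, the region chr17:17823864-17824365 held 22.3, 27.3 and 20.8 CPM in DMSO and only 7.55, 6.68 and 2.72 CPM in DTPs. With AZD5153 it held 3.31, 2.79 and 4.83 CPM. All treated libraries were below all DMSO libraries, and the log2 fold change was -2.05 ± 0.56 (SE) in DTPs (adjusted p = 0.0271) and -2.69 ± 0.58 with AZD5153 (adjusted p = 0.00549). Its neighbour chr17:17822995-17823496 fell by 2.69 ± 0.62 on the log2 scale in DTPs (adjusted p = 0.0119), from 6.89, 6.92 and 9.55 CPM to 1.63, 0.696 and 1.21 CPM. Over the whole body of SREBF1 the count table holds 18 regions, annotated or not, and 17 of them had a fold change below 0 in DTPs and with AZD5153, with medians of -1.48 and -1.50.

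INSIG1, which retains SCAP in the endoplasmic reticulum, had 14 regions. Its strongest promoter region (chr7:155297090-155297591) held 32.7, 52.6 and 38.0 CPM in DMSO, 17.7, 55.9 and 11.8 CPM in DTPs and 17.5, 15.4 and 44.5 CPM with AZD5153. Apart from the 2 promoter-rich libraries every treated library was at or below 17.7 CPM, and without them the log2 fold change was -1.45 in DTPs (adjusted p = 0.0015), where it was -0.53 ± 0.61 with all libraries. Leaving out these libraries, chosen after seeing the data, also moved the median of all promoter regions in DTPs, from 0.35 to -0.18. A region 6.03 kb upstream (chr7:155291244-155291745) fell with all libraries as well. It held 6.71, 12.2 and 11.1 CPM in DMSO, 1.72, 1.81 and 2.52 CPM in DTPs and 2.40, 2.21 and 3.09 CPM with AZD5153, a log2 change of -2.30 ± 0.55 in DTPs (adjusted p = 0.0146). Peaks overlapped it in 3 of 3 DMSO libraries and in 0 of the 6 treated ones. Distal INSIG1 regions had a fold change below 0 in 9 of 12 cases in DTPs, with 1 called (8.33%, beside 10.8% of all distal regions called lower).

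INSIG2, SREBF2 and SCAP had no region called in DTPs. The strongest SREBF2 region (chr22:41832293-41832794) lies beside the only searched promoter that matched TCACNCCAC. There DMSO held 16.2, 24.7 and 19.2 CPM, DTPs 18.5, 43.6 and 16.6 CPM and AZD5153-treated DTPs 22.3, 23.6 and 27.3 CPM. An intronic SREBF2 region 16.1 kb from an annotated start site fell by 1.74 ± 0.57 on the log2 scale with AZD5153 (adjusted p = 0.0404), and an intergenic INSIG2 region 15.3 kb away fell by 2.31 ± 0.67 (adjusted p = 0.0244). In the opposite direction, an intergenic INSIG2 region 28.3 kb away (chr2:118059678-118060179) held 1.27, 1.96 and 0.905 CPM in DMSO, 5.16, 8.77 and 9.06 CPM in DTPs and 6.01, 14.8 and 0.387 CPM with AZD5153. It did not pass the test with all libraries (adjusted p = 0.0594 in DTPs), although every DTP library was above every DMSO library.

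Mevalonate and isoprenoid genes make the building blocks of sterols from acetyl-CoA. They had 13 regions in 6 genes, with 2 higher and 1 lower in both comparisons with DMSO, all assigned to HMGCS1, the synthase that makes HMG-CoA. These are 15.4% and 7.69% of the 13 regions. Of all annotated regions 6.98% and 7.22% were called in DTPs and 10.7% and 11.1% with AZD5153. The HMGCS1 promoter at the RefSeq start site (chr5:43313012-43313513) held 15.1, 25.1 and 14.2 CPM in DMSO, 19.4, 55.7 and 13.9 CPM in DTPs and 21.0, 19.1 and 52.6 CPM with AZD5153, and did not pass the test. A region 19.2 kb into the gene (chr5:43293921-43294422), annotated to a start site inside the gene, held 1.36, 1.14 and 0.805 CPM in DMSO, 13.7, 24.4 and 20.2 CPM in DTPs and 34.1, 34.8 and 10.4 CPM with AZD5153. Every treated library was far above every DMSO library. The region rose 17.4-fold in DTPs (log2 4.12 ± 0.65, adjusted p = 0.00315) and 23.7-fold with AZD5153 (log2 4.57 ± 0.66, adjusted p = 0.00121). Peaks overlapped it in 0 of 3 DMSO libraries and in all 6 treated libraries.

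The next region of HMGCS1, 18.1 kb into the gene (chr5:43295116-43295617), went from 1.09, 0.826 and 1.01 CPM in DMSO to 6.12, 4.04 and 13.8 CPM in DTPs and 12.1, 8.03 and 2.13 CPM with AZD5153. It rose by log2 3.02 ± 0.71 in DTPs (adjusted p = 0.0136) and 2.93 ± 0.70 with AZD5153 (adjusted p = 0.00991). All 7 regions of the count table inside HMGCS1 had a fold change above 0 in both comparisons, with medians of 2.17 in DTPs and 1.45 with AZD5153. No RefSeq start site lay within 1 kb of either internal region.

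The lower region assigned to HMGCS1 lies 23.1 kb upstream of an annotated start site (chr5:43336601-43337102), is classed as intronic in the deposited annotation and is inside no RefSeq gene. It held 65, 159 and 102 counts in DMSO, 5, 8 and 15 in DTPs and 4, 4 and 0 with AZD5153, which is 5.89, 16.4 and 10.3 CPM against 0.478, 1.11 and 1.51 CPM and 0.401, 0.465 and 0.0 CPM. The lowest DMSO value was above the highest treated value. The log2 fold change was -3.38 ± 0.70 in DTPs (adjusted p = 0.0081) and -5.02 ± 0.80 with AZD5153 (adjusted p = 0.00147). HMGCS1 thus held calls in both directions.

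**Figure D4:**
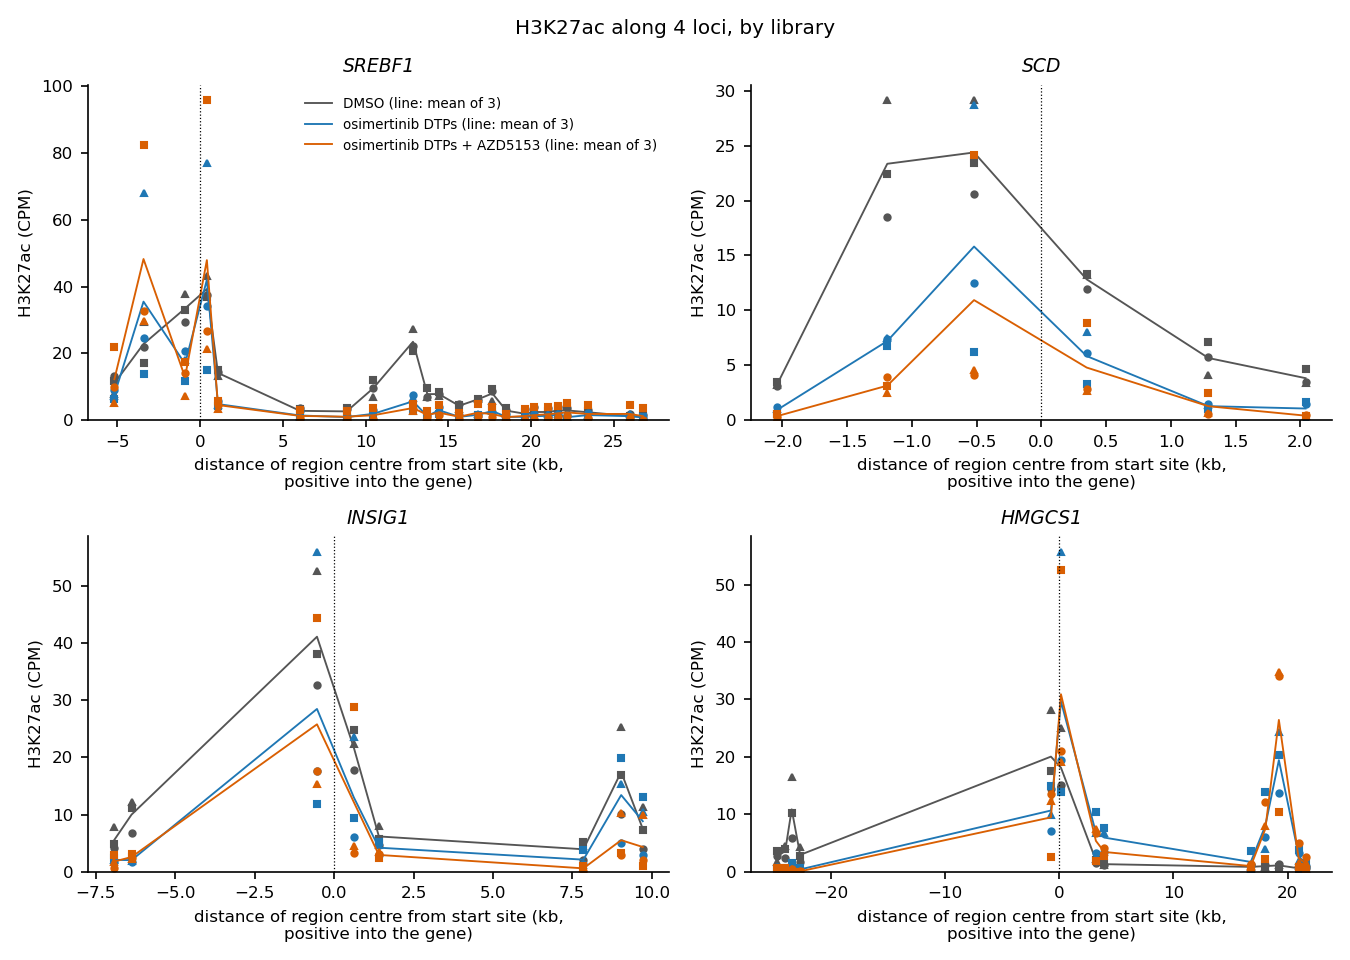
H3K27ac (CPM) against the distance of each region's centre from the RefSeq start site (kb, positive into the gene) at SREBF1, SCD, INSIG1 and HMGCS1, with points for each library (circle, triangle and square for replicates 1, 2 and 3) and lines for group means. SREBF1 shows a second DMSO maximum 13 kb into the gene that falls from 22.3, 27.3 and 20.8 CPM in DMSO to 7.55, 6.68 and 2.72 CPM in DTPs, and HMGCS1 shows one 19.2 kb into the gene in the treated libraries, where DMSO is at 0.805 to 1.36 CPM.

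PMVK, MVD, IDI1, FDPS and ACAT2 had no region called in either comparison with all libraries. PMVK, the phosphomevalonate kinase, had the strongest promoter of these 5 in DMSO, at 43.4, 57.6 and 45.5 CPM, with 46.6, 81.8 and 40.5 CPM in DTPs and 59.4, 65.5 and 76.3 CPM with AZD5153. Both regions assigned to ACAT2, an acetyl-CoA acetyltransferase, also lie within 1 kb of a SOD2 start site, so their signal cannot be assigned to 1 of these genes. MVD, the mevalonate diphosphate decarboxylase, held 11, 19.1 and 14.2 CPM in DMSO, 9.08, 30.2 and 7.55 CPM in DTPs and 6.51, 7.33 and 33.1 CPM with AZD5153, where only the promoter-rich libraries were above DMSO.

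Squalene to cholesterol, the later and oxygen-dependent part of sterol synthesis, had 22 regions in 7 genes. None was called in DTPs, and with AZD5153 1 was higher and 1 lower (4.55% each, beside 10.7% and 11.1% of all annotated regions). LSS, lanosterol synthase, rose at a region 0.62 kb from its start (chr21:46227641-46228142), from 2.27, 1.03 and 1.41 CPM in DMSO to 5.31, 3.14 and 13.9 CPM with AZD5153 (log2 2.22 ± 0.65, adjusted p = 0.0264). In DTPs the region was at 2.68, 5.43 and 3.22 CPM, above every DMSO library too, but did not pass the test. MSMO1, the sterol-C4 methyl oxidase, fell at a flank 1.75 kb from its start (chr4:165325419-165325920), from 10.8, 16.6 and 9.65 CPM to 5.01, 3.96 and 2.71 CPM with AZD5153 (log2 -1.65 ± 0.54, adjusted p = 0.0398). FDFT1, SQLE, CYP51A1, SC5D and DHCR7 had no region called. SQLE, the squalene epoxidase, held 6.17, 10.4 and 6.13 CPM at its strongest promoter region in DMSO, 5.93, 14.6 and 3.42 CPM in DTPs and 4.21, 3.84 and 10.6 CPM with AZD5153, which overlap. At SC5D, a sterol desaturase, peaks within 5 kb of the start site covered 797 to 875 bp in DMSO, 1460 to 1704 bp in DTPs and 1281 to 1822 bp with AZD5153, which did not overlap with DMSO.

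Cholesterol transport and turnover had 22 regions, 17 of them at NPC1, which exports cholesterol from late endosomes and lysosomes. The NPC1 locus changed in both directions. Upstream of its start, a group of intergenic regions was lower, led by chr18:23593121-23593622 at 35.5, 52.6 and 38.6 CPM in DMSO, 15.0, 8.91 and 8.66 CPM in DTPs and 12.9, 12 and 2.71 CPM with AZD5153. Its log2 fold change was -1.96 ± 0.60 in DTPs (adjusted p = 0.0433) and -2.18 ± 0.60 with AZD5153 (adjusted p = 0.0192). In all, 2 upstream regions were lower in DTPs and 4 with AZD5153. These are 11.8% and 23.5% of the 17 NPC1 regions, beside 5.13% and 9.01% of all tested regions. Inside the gene, 2 neighbouring promoter flanks of internal start sites were higher with AZD5153 (11.8% of the 17 regions, beside 10.7% of all annotated regions). They were chr18:23573721-23574222 (log2 2.13 ± 0.70, adjusted p = 0.043) and chr18:23574242-23574743 (log2 1.94 ± 0.61, adjusted p = 0.0364). The first held 4.26, 5.47 and 2.41 CPM in DMSO, 7.27, 5.57 and 13.4 CPM in DTPs and 23.8, 26.1 and 3.09 CPM with AZD5153, so that replicate 3 stayed at the DMSO level. Of the 42 regions of the count table inside NPC1, 4 had a fold change below 0 in DTPs and 13 with AZD5153, and the median was 0.62 and 0.41. Only 10 of the 42 are assigned to NPC1, and some of the others are assigned to RMC1, so their signal may not belong to NPC1. STARD4, a sterol carrier, and MYLIP, a ubiquitin ligase of lipoprotein receptors, had no region called.

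Acetyl-CoA supply and fatty acid synthesis had 18 regions in 3 genes, none called in DTPs. With AZD5153, 2 were higher and 2 lower. That is 11.1% each, near the 10.7% and 11.1% of all annotated regions. ACLY, the ATP citrate lyase that makes cytosolic acetyl-CoA, held both directions within its introns. The region chr17:41910346-41910847 went from 18.9, 23.9 and 16.3 CPM in DMSO to 8.32, 12.2 and 5.34 CPM in DTPs and 3.21, 3.02 and 5.22 CPM with AZD5153 (log2 -2.37 ± 0.56, adjusted p = 0.00903). Its neighbour chr17:41911026-41911527 fell by 2.34 ± 0.55 on the log2 scale. Farther in, chr17:41895291-41895792 rose from 3.54, 4.03 and 2.82 CPM to 10.5, 11.9 and 12.6 CPM with AZD5153 (log2 1.75 ± 0.52, adjusted p = 0.0268) and stood at 10.1, 12.5 and 8.86 CPM in DTPs (adjusted p = 0.0538). ACSS2, which makes acetyl-CoA from acetate, rose at an internal region (chr20:34923067-34923568) by log2 1.86 ± 0.63 with AZD5153 (adjusted p = 0.0498). FASN, the fatty acid synthase, held 18.3, 25.3 and 22.1 CPM in DMSO at its strongest promoter region, 12.5, 38.1 and 5.34 CPM in DTPs and 8.02, 5.58 and 35.2 CPM with AZD5153. Without the promoter-rich libraries its log2 fold change was -1.26 (adjusted p = 0.017) and -1.61 (adjusted p = 0.0019), and with them it was -0.24 ± 0.73 and -0.44 ± 0.73. Those libraries, left out after seeing the data, were the highest of their group here, so leaving them out lowers the values in advance.

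Desaturation, elongation and glycerolipid genes had 43 regions in 7 genes, with 6 lower in DTPs (14%, beside 7.22% of all annotated regions), 8 lower with AZD5153 (18.6%, beside 11.1%) and none higher in either. Of its 21 distal regions 4 and 6 were lower, beside 10.8% and 16.1% of all distal regions. SCD, the stearoyl-CoA desaturase that makes oleate, was lower on both sides of its start site. The region 0.943 kb upstream (chr10:100345789-100346290) held 18.5, 29.1 and 22.4 CPM in DMSO, 7.36, 7.51 and 6.75 CPM in DTPs and 3.91, 2.44 and 3.09 CPM with AZD5153. The 3 groups did not overlap. It fell 3.24-fold in DTPs (log2 -1.69 ± 0.52, adjusted p = 0.043) and 7.38-fold with AZD5153 (log2 -2.88 ± 0.55, adjusted p = 0.00286), while the direct comparison of both treated groups gave -1.19 ± 0.53 and did not pass the test. A flank 1.04 kb into the gene (chr10:100348271-100348772) fell by 2.14 ± 0.64 on the log2 scale in DTPs (adjusted p = 0.04). At the start site, beside the printed promoter with its 2 CCAAT boxes, the region chr10:100346465-100346966 held 20.6, 29.1 and 23.4 CPM in DMSO, 12.5, 28.7 and 6.24 CPM in DTPs and 4.11, 4.54 and 24.2 CPM with AZD5153. Outside the promoter-rich libraries all treated values were below DMSO, with log2 fold changes of -1.34 (adjusted p = 0.0089) and -2.42 (adjusted p = 2.3e-05) without those libraries. The libraries left out, chosen after seeing the data, were the highest of their group here too, which lowers these values in advance. Peaks within 5 kb of the SCD start covered 3290 to 4087 bp in DMSO, 1186 to 2273 bp in DTPs and 375 to 1522 bp with AZD5153.

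ELOVL6, which elongates palmitate, had 10 distal regions, all in introns, and all 10 had a fold change below 0 in both comparisons, with medians of -1.46 in DTPs and -1.29 with AZD5153. Of these, 2 passed the test in DTPs and 3 with AZD5153. The largest fall in DTPs was at chr4:110159015-110159516, from 5.99, 9.19 and 4.12 CPM in DMSO to 1.34, 0.696 and 0.705 CPM (log2 -2.78 ± 0.77, adjusted p = 0.0288). With AZD5153 this region held 4.61, 2.68 and 0.193 CPM and was the only one called in DTPs that was not called with AZD5153 (log2 -1.32 ± 0.71, adjusted p = 0.217). The strongest ELOVL6 promoter region overlapped between all groups, at 9.96 to 15.9 CPM in DMSO, 5.14 to 11.7 CPM in DTPs and 7.10 to 17 CPM with AZD5153.

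ELOVL1, an elongase of very long fatty acids, fell at an intergenic region 4.61 kb upstream (chr1:43372688-43373189), from 14.8, 19.1 and 12.3 CPM in DMSO to 3.73, 3.06 and 2.62 CPM in DTPs (log2 -2.29 ± 0.56, adjusted p = 0.017) and 2.40, 2.21 and 0.773 CPM with AZD5153 (log2 -3.05 ± 0.59, adjusted p = 0.00314). LPIN1, a phosphatidate phosphatase, fell 8.98-fold in DTPs at an intronic region (chr2:11707779-11708280), from 4.81, 4.54 and 4.32 CPM to 0.574, 0.278 and 0.604 CPM (log2 -3.17 ± 0.70, adjusted p = 0.0103). Peaks overlapped this region in 3 of 3 DMSO libraries and in none of the treated ones. With AZD5153 it held 0.601, 0.349 and 1.55 CPM, and a second, intergenic LPIN1 region was also lower. FADS1, FADS2 and ELOVL5, which desaturate and elongate polyunsaturated fatty acids, had 12 regions together, and none was called with all libraries. FADS1 and FADS2 lie next to each other, and the strongest FADS1 region (36.5, 45.2 and 31.1 CPM in DMSO) is within 1 kb of a FADS2 start site as well.

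**Figure D5:**
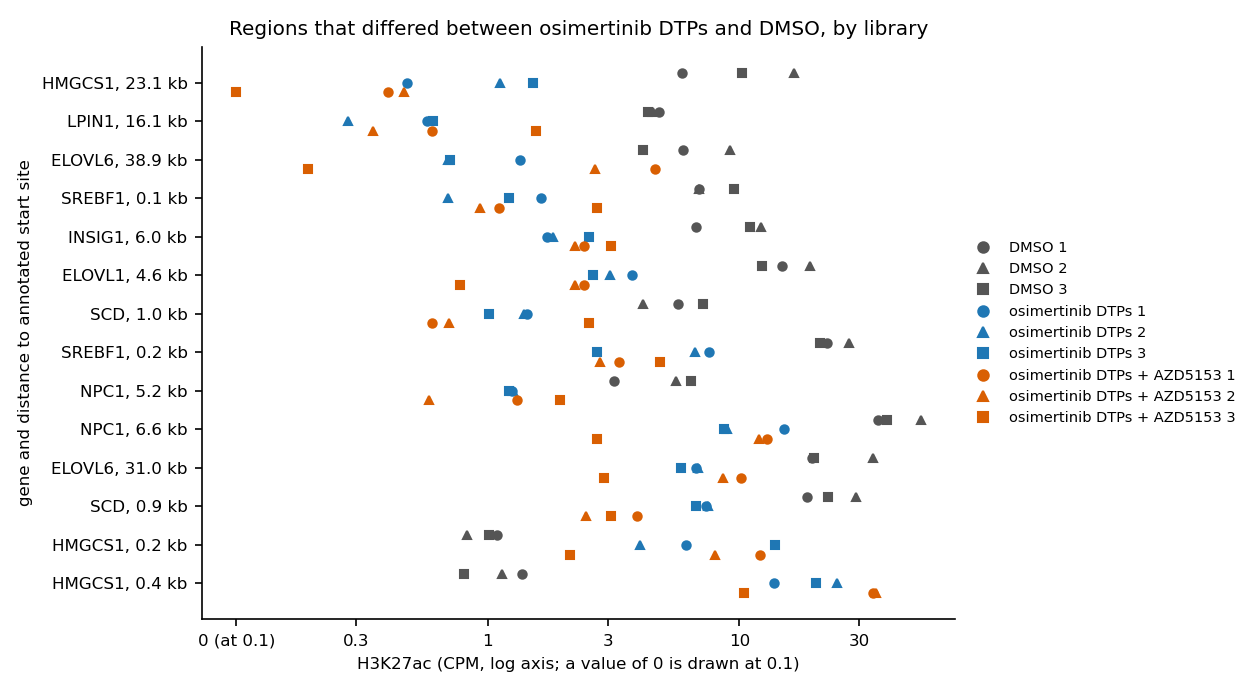
H3K27ac (CPM, log axis) in each library at the 14 regions called in osimertinib DTPs against DMSO, ordered by fold change and named by gene and distance to the annotated start site, with circle, triangle and square for replicates 1, 2 and 3. In the upper 12 rows every DMSO value is right of every DTP value, and in the lower 2 rows, both HMGCS1, the DMSO values of 0.805 to 1.36 CPM are left of all treated values.

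The calls depended on single libraries. Leaving out 1 library at a time, DMSO replicate 2, osimertinib DTPs replicate 2 and DMSO replicate 3 gave 0, 0 and 1 lower regions in DTPs in place of 12, osimertinib DTPs replicates 1 and 3 gave 3 and 1, and DMSO replicate 1 gave 5. The share of all tested regions called lower moved the same way, from 5.13% to between 0.294% and 2.83% in these 6 fits. Leaving out osimertinib DTPs + AZD5153 replicate 3 raised the number to 33, and the share of all regions to 12.7%. Without osimertinib DTPs replicate 3, whose file name and label differ, 1 region was higher and 1 lower in DTPs, beside 1.85% and 0.903% of all regions, and the medians of promoter and distal regions were 0.48 and -0.44. Of the 14 regions called in DTPs, only the internal HMGCS1 region chr5:43293921-43294422 was called in all 9 such fits, with a highest adjusted p of 0.0434. Of the 31 called with AZD5153, 5 were called in all 9: that HMGCS1 region, the region 23.1 kb upstream of HMGCS1, the SCD region 0.943 kb upstream, the ELOVL1 region 4.61 kb upstream and the internal SREBF1 region chr17:17823864-17824365.

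A list of 22 other lipid synthesis genes, with 100 regions in 19 genes, was counted in the same way. In DTPs 5 of its regions were higher and 7 lower, beside 6.98% and 7.22% of all annotated regions, and with AZD5153 3 were higher and 9 lower, beside 10.7% and 11.1%. Its distal regions had a median of -0.40 in DTPs and -0.79 with AZD5153, and its promoter regions 0.21 and 0.17. The falls in DTPs were at ACSL5 (4 regions) and LBR (3 regions), which had as many lower regions with AZD5153, and all 3 regions of SCD5, a second stearoyl-CoA desaturase, were higher in DTPs.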

How the data were processed

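H3K27ac ChIP-seq libraries of H1975 cells (3 DMSO, 3 osimertinib DTPs, 3 osimertinib DTPs + AZD5153) and 1 pooled input were analysed from the processed files, with groups taken from the sample titles. The authors deposited raw read counts, not normalized, for 169637 regions of 502 bp, and for 67387 of them also an annotation class, gene symbol and distance to a start site. They also deposited 1 peak list per library, with a display score, a fold enrichment as a ratio and p and q as −log10 values, all per the file headers or the values. Only the positions of peaks were used here, with an overlap of at least 1 bp. The submitters' processing notes name the build hg38 and BWA 0.7.17, MACS2 2.2.6, featureCounts 2.0.0 and ChIPseeker 1.29.1, with no order or settings. Alignment settings, peak thresholds and the handling of duplicate reads were not given in the sources used here.

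The counts of regions entered edgeR 4.0.16 (on limma 3.58.1 and R 4.3.3), with filterByExpr with a minimum count of 10, TMM scaling, and the robust quasi-likelihood test in 1 fit of the 9 libraries, with Benjamini-Hochberg adjustment over 157919 regions and a threshold of 0.05. CPM values are counts scaled to a common library size after TMM. Standard errors are those implied by the F statistic. The script was tested on simulated data. Since CPM is relative to each library, a change of the mark in all regions at once would not be seen. DESeq2 1.42.0 and other scalings, filters, thresholds and sets of libraries were tried as alternatives, and leaving out both promoter-rich libraries was chosen after seeing the data.

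The groups share replicate numbers. After subtracting group means, same-numbered libraries of osimertinib DTPs and DMSO correlated at Pearson's r of 0.334, 0.355 and 0.324 over regions, all above 0.1, so these numbers were taken to pair the libraries. What a shared number stands for is not given in the labels. The main fit, which gave the standard errors and adjusted p values above, has no term for the pairing. A fit with the replicate number as a block is given below as an alternative.

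The genes, the list of other lipid synthesis genes and the motifs were chosen with earlier results of these data known. Named regions are the strongest promoter region of each gene, every region called in a comparison and the 5 largest rises and 5 largest falls per comparison. Promoter sequences and start sites are from RefSeq, GRCh38.p14. A marker gene and a gene of the list of other lipid synthesis genes are not reported here by name.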

Additional observations from a re-analysis of the deposited data

How the results depend on the processing

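No called region changed direction under any alternative, the promoter medians near 0 changed sign with the scaling, and the numbers of called regions moved. In DTPs against DMSO, 2 higher and 12 lower regions became 1 and 1 with TMM on promoters, 14 and 31 with only the libraries of both groups, 9 and 40 without both promoter-rich libraries, 6 and 23 in DESeq2 and 1 and 1 at an adjusted p under 0.01. Calls over all regions, 5.58% higher and 5.13% lower, became 0.799% and 0.957%, 13.6% and 12.8%, 14.9% and 12% and, in DESeq2, 7.91% and 9.76%. With AZD5153 against DMSO, 7 higher regions became 3 without TMM, 1 with TMM on promoters, 3 with only the libraries of both groups, 17 without both promoter-rich libraries and 2 at an adjusted p under 0.01, and 24 lower regions became 12, 53 and 7 in the last 3 of these. Calls over all regions, 9.05% higher and 9.01% lower, became 6.06% and 9.59% without TMM and 2.95% and 5.15% with TMM on promoters. They became 5.46% and 5.97% with only the libraries of both groups, and 22.8% and 19.8% without both promoter-rich libraries. With AZD5153 against DTPs, leaving out both promoter-rich libraries gave 1 higher and 2 lower regions in place of 0 and moved the distal median from -0.05 to 0.26. The same step moved the distal median of AZD5153 against DMSO from -0.75 to -0.41. The cause of these shifts was not tested.

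Leaving out 1 library at a time gave 1 to 12 higher and 0 to 33 lower regions in DTPs against DMSO, 1 to 13 and 5 to 45 with AZD5153 against DMSO, and a distal median of -0.83 to -0.43 in the latter. Calls over all tested regions moved widely too. They were 0.407% to 14.2% higher and 0.294% to 12.7% lower in DTPs, and 2.40% to 18.4% and 2.76% to 17.3% with AZD5153. With the replicate number as a block, DTPs against DMSO gave 3 higher and 12 lower regions and lost none of the 14 calls. Over all tested regions the block fit called 5.34% higher and 5.07% lower in DTPs, and 7.88% and 9.63% with AZD5153 against DMSO. With AZD5153 against DMSO the block gave 4 higher and 30 lower and lost 3 of 31 calls, the LSS region (adjusted p = 0.0527) and both internal NPC1 regions (0.0874 and 0.0602). Same-numbered libraries of these groups correlated at -0.02, 0.55 and 0.36, and those of both treated groups at 0.24, 0.03 and -0.24, so that not every library matched its own number best. The filter on low counts changed no count by more than 1.5 times. With 3 libraries per group, small changes at regions of few counts were not detectable.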
